A study of Sus scrofa with 85 samples.

Results

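Micro-endomyocardial biopsies (micro-EMB) taken 14 days after a balloon occlusion were compared between the infarcted apical region and the non-infarcted lateral region of the left ventricle in 13 RNA-seq libraries out of 85 in the series. The libraries were those labelled apical or lateral at Day 14 that held at least 1000000 counts and had 7 to 60% of their counts in their 10 most counted genes, which kept 7 of 9 apical and 6 of 6 lateral libraries. The 2 apical libraries outside these limits had 2.92% and 3.09% of their counts in those genes, and the kept library nearest to the limit had 11.7%. All libraries came from 3 female mixed breed Yorkshire-Swedish farm pigs, whose ages are not given in the sources used here. In each animal the distal left anterior descending artery was occluded for 60 min and then reperfused, and both regions were sampled under anesthesia on the same day, so the lateral samples came from the same occluded, reperfused and repeatedly biopsied hearts. Swine 1640 gave 2 apical and 2 lateral libraries, swine 1644 gave 2 and 2, and swine 5385 gave 3 and 2. Libraries of one animal were repeated biopsies of the same heart, so the p-values below measure the spread between biopsies and not only between animals. The 4 kept micro-EMB libraries of the baseline, taken before the occlusion, are shown beside the comparison as levels only. They carry the label apical, but per the study's methods they were not aimed at a region. Without a baseline for each region, the position in the ventricle and the infarct cannot be told apart in this comparison. At Day 14, region labels came from the aim of the catheter, and the study described its sampling of infarcted and non-infarcted areas as partly inaccurate.

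After an infarct, dead cardiomyocytes are cleared by inflammatory cells and replaced by a scar that fibroblasts build from collagens, fibronectin and matricellular proteins. Cells that meet a stimulus transcribe immediate-early genes such as FOS and EGR1 within minutes, without new protein synthesis, and raise chaperones when proteins misfold. A micro-EMB holds a very small piece of wall, in which scar, surviving muscle, endocardium and vessels can be present in any mixture. In such bulk samples, fewer cells of a type and less RNA per cell of that type cannot be told apart.

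The 13 libraries held 5184915 to 14434740 counts, and neither the total count nor the count profile differed between the regions beyond the spread between libraries. The 10 most counted genes took 11.7 to 38.0% of the counts. The number of genes with a CPM (counts per 1000000 counts of the library) of at least 1 was lowest at 13665, with a median of 15013 and a maximum of 18932, in the apical libraries, against 13975, 15744 and 22076 in the lateral libraries. The difference in means of -1814.83 genes gave an adjusted p of 0.593 by an exact two-sided permutation test over all divisions of the libraries into groups of 7 and 6, adjusted over 3 library measures. Lateral 2 (lateral replicate 2, swine 1644) with 22076 genes, lateral 3 (swine 1640) with 20949 and apical 6 (swine 1640) with 18932 spread their counts over more genes than the other 10 libraries, which had 13665 to 15991. These 3 are called the even-profile libraries below. Apical 5 (swine 1644) stood apart in another way, with 99434.6 CPM in fibrillar collagen genes and 3153.07 CPM in sarcomere genes, and it was not among the apical libraries the study listed for its analysis. A baseline library of the same swine, taken before the occlusion (baseline 1), had a like profile, with 38791.6 CPM in fibrillar collagen genes and 736.616 CPM in sarcomere genes. Values without apical 5 or without the even-profile libraries are given beside results that rest on them, and both exclusions were chosen after seeing the data, except that of apical 5 alone.

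**Figure D1:**
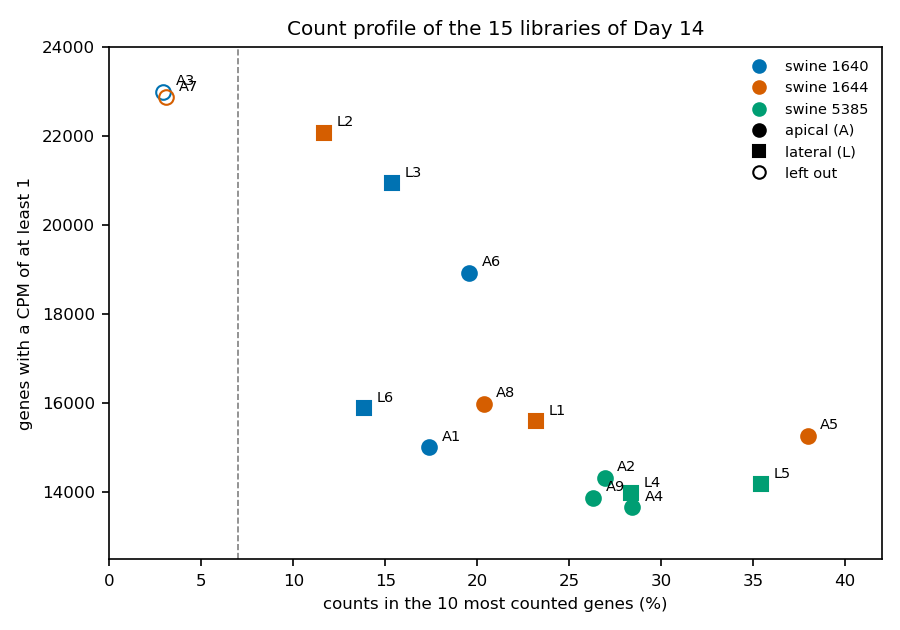
Number of genes with a CPM of at least 1 (y axis) against the percent of counts in the 10 most counted genes (x axis) for the 15 Day 14 libraries, with circles for apical (A) and squares for lateral (L) libraries, coloured by swine, and the 7% limit as a dashed line. The 2 open circles, at 2.92% and 3.09%, were left out, and lateral 2, lateral 3 and apical 6 lie above 18000 genes among those kept.

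Both regions expressed genes of cardiac muscle. MYH6, a cardiac myosin heavy chain that shares near-identical sequence with MYH7, so that the split of reads between them is uncertain, had log2 CPM of 9.52 at the lowest, 14.94 at the median and 16.01 at the highest in apical libraries. The lateral values were 12.60, 14.32 and 15.61. Without apical 5, the lowest apical value was 14.60. Muscle transcripts were thus abundant in all 6 lateral and in 6 of 7 apical libraries, and apical 5 was rich in collagen transcripts.

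No gene passed the test between the regions. Of 19590 genes tested with edgeR's quasi-likelihood test and Benjamini-Hochberg adjustment, 0 (0%) had an adjusted p of 0.05 or less, and the smallest adjusted p was 0.695. At an unadjusted p under 0.05 there were 816 genes, 367 higher in the apical region (1.87%) and 449 lower (2.29%). Together these were 4.17% of the genes tested, no more than the threshold of 0.05 alone would give if no gene differed. DESeq2 called 2 genes, FAM13C and TNIK, with 1755 genes at an unadjusted p under 0.05, and limma-voom called 0 with 983. The median log2 fold change over all genes, apical minus lateral, was -0.10 and moved to -0.22 with the size factors of DESeq2, so small differences below are read relative to that shift. The 7 apical and 6 lateral values did not overlap for 5 genes that were higher in the apical region (0.0255%) and 7 that were lower (0.0357%). The number of genes at an unadjusted p under 0.05 turned on single libraries: it was 2705 without apical 6, 1285 without lateral 1, 439 without lateral 2 and 423 without lateral 3. The genes in the lower direction also numbered 294, 267, 255 and 279 without apical 2, 4, 8 and 9, and numbered 780 and 710 without lateral 4 and lateral 5.

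Among the genes lower in the apical region, the smallest p-values belonged to genes with little or no overlap between the regions. FAM13C (chr14:62622895-62754404) had log2 CPM of 5.37, 5.60 and 5.89 (lowest, median, highest) in the apical libraries against 6.06, 6.33 and 6.69 in the lateral libraries. The regions did not overlap, and the difference was -0.78 (SE 0.17, 95% interval -1.15 to -0.41, unadjusted p = 0.00041). Within animals the difference in mean log2 CPM was -0.72 in swine 1640, -0.80 in swine 1644 and -0.82 in swine 5385. DESeq2 called FAM13C with a log2 fold change of -0.88 and an adjusted p of 2.47e-06, while the quasi-likelihood test of edgeR, after Benjamini-Hochberg adjustment, gave 0.695 for it as for the other genes of this and the next paragraphs. The 4 baseline libraries ranged from 5.60 to 6.52 and thus spanned both groups.

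PLA2R1, the receptor of secretory phospholipases A2, also had no overlap between the regions. Its log2 CPM was 2.49, 3.32 and 3.78 in apical against 3.94, 4.27 and 4.44 in lateral libraries, a difference of -1.01 (SE 0.25, unadjusted p = 0.00095). ALPL, the tissue-nonspecific alkaline phosphatase, was at 1.30, 2.04 and 3.84 in apical and at 3.13, 4.41 and 4.71 in lateral libraries. Lateral 6, with 3.13, lay within the apical range, and the difference was -1.66 (SE 0.43). TEC, a cytoplasmic tyrosine kinase, did not overlap either, with 3.74, 4.36 and 4.62 against 4.74, 5.05 and 5.48 and a difference of -0.82 (SE 0.21). The other genes among the 10 with the smallest p in this direction were SH3BGRL2 (-1.04), RERGL, a Ras-like protein (-2.97), SAMD5 (-0.95), ITGBL1, an integrin beta-like protein (-1.20), ANO1, a calcium-activated chloride channel (-0.88), and SGIP1, an endocytic adaptor (-1.27). RERGL was a low gene, at a median log2 CPM of -0.59 in apical and 1.76 in lateral libraries, and apical 5 held no count of it. Of genes with a symbol, LRRC3B (-1.40) and BICD1, a dynein adaptor (-0.66), were the others with no overlap. Without apical 5 the differences of all 12 genes of these 2 paragraphs lay between -2.78 and -0.71, and without apical 5 and the even-profile libraries between -2.92 and -0.73.

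Among the genes higher in the apical region with the smallest p-values, 4 of 10 were members of the immediate-early list, and most of the genes named here overlapped between the regions. PPP1R15A, which directs the dephosphorylation of eIF2-alpha after stress, was at 5.46, 5.68 and 6.67 in apical against 3.63, 4.88 and 5.60 in lateral libraries. Lateral 5 was the one lateral library inside the apical range, and the difference was 1.07 (SE 0.30, 95% interval 0.44 to 1.71, unadjusted p = 0.00244). It was higher in the apical mean of all 3 swine, by 0.95, 1.76 and 0.64 in swine 1640, 1644 and 5385. LEAP2, an antimicrobial peptide gene, was at 3.70, 4.16 and 4.41 in apical against 2.15, 3.16 and 3.69 in lateral libraries, with no overlap, though apical 6 and lateral 6 were nearly equal, and a difference of 0.98 (SE 0.28). TNIK, a kinase of the Wnt pathway, was at 7.65, 7.92 and 8.29 against 7.12, 7.46 and 7.58. It is named for its lack of overlap and was not among the 10 smallest p-values (unadjusted p = 0.00783). Its difference of 0.59 (SE 0.19) was the second that DESeq2 called, at a log2 fold change of 0.48 and an adjusted p of 0.0166. PTX4, a pentraxin, did not overlap either, with a difference of 1.42 that was 0.93 without apical 5. The 10 smallest p-values also included NR4A1, FOS, NR4A3 and DUSP1, described next, MORF4L2 of the NuA4 acetyltransferase complex (0.93), TENT5A, a poly(A) polymerase (1.18), and OLR1, the receptor of oxidized LDL (1.43).

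**Figure D2:**
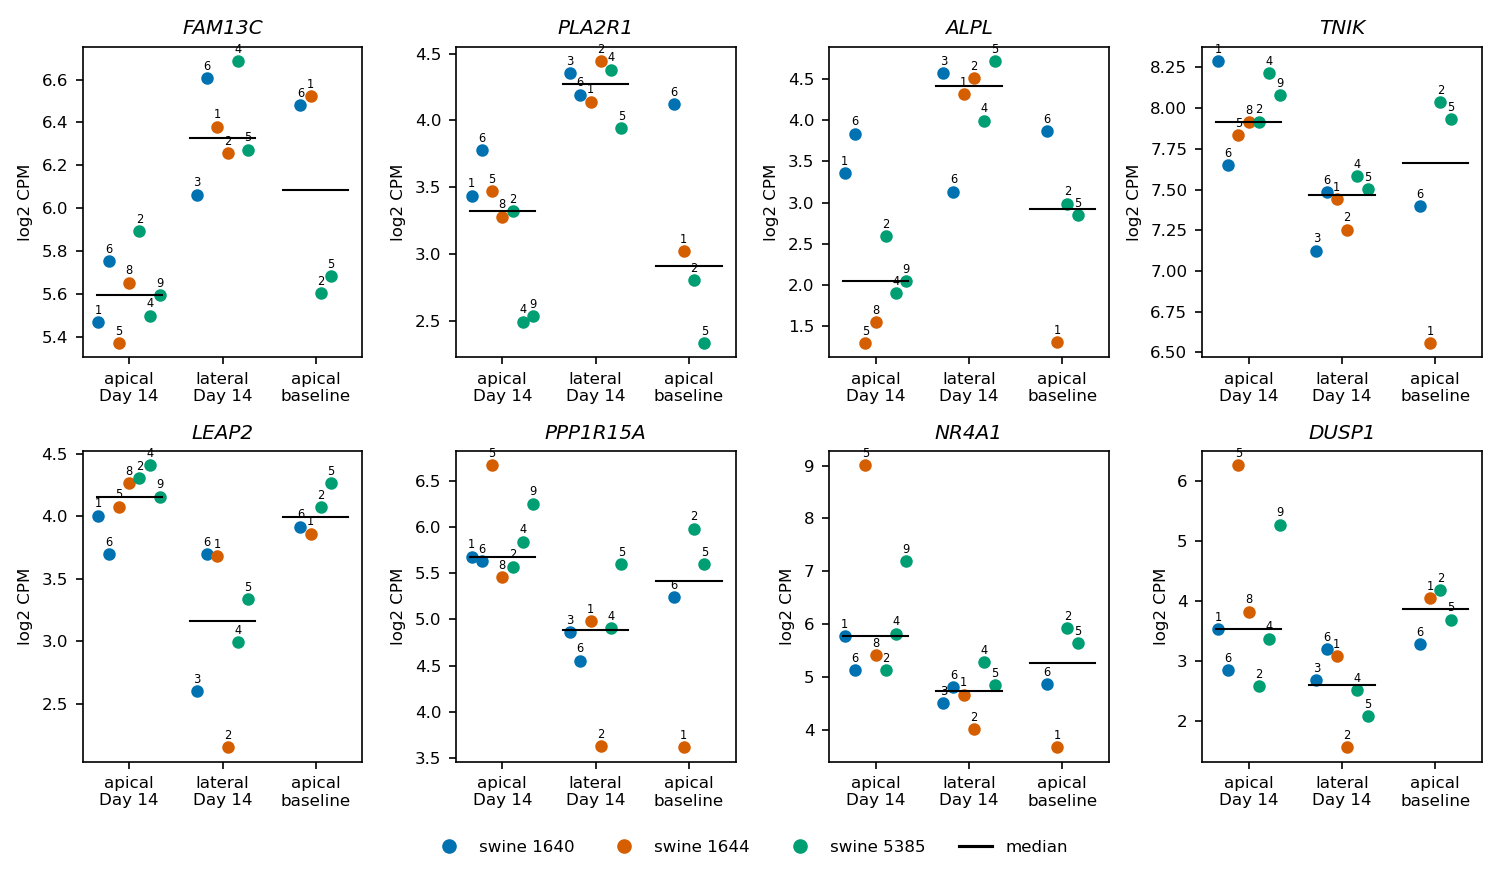
Log2 CPM (y axis) of 8 genes among those with the smallest p-values or no overlap, in apical Day 14, lateral Day 14 and apical baseline libraries, with 1 numbered point per library coloured by swine and the median as a line. FAM13C, PLA2R1, TNIK and LEAP2 do not overlap between the Day 14 groups, ALPL and PPP1R15A overlap through lateral 6 and lateral 5, and apical 5 is highest for NR4A1 (9.01) and DUSP1 (6.26).

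Immediate-early genes were the list with the most members at a small p. Of 22 members tested, 17 had an unadjusted p under 0.05 in the higher direction and 0 in the lower, against 1.87% and 2.29% of all genes. In 21 members (95.5%) the difference was above 0, against 43.8% of all genes tested. The median difference of the list was 1.61, against -0.10 over all genes tested, and 0 members passed the test. The summed level of the list was 313, 517 and 4130 CPM (lowest, median, highest) in apical libraries and 185.5, 306 and 370 CPM in lateral libraries. Apical 5, with 4130 CPM, and apical 9 (swine 5385), with 1460 CPM, stood above all others, and apical 2 (swine 5385) lay within the lateral range. The 4 baseline libraries held 363 to 574 CPM, within the range of the apical libraries at Day 14. Without apical 5, 11 of 22 members remained at an unadjusted p under 0.05, with a median difference of 0.78, against 1.88% of all genes. Without the even-profile libraries the count was 14 (1.48% of all genes) with a median of 1.98, and without all 4 libraries it was 10 of 21 (2% of all genes) with a median of 0.75.

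Promoters of immediate-early genes carry binding sites for factors that are activated without new protein synthesis, among them the cAMP response element (CRE). The 300 bases upstream of the RefSeq gene start (Sscrofa11.1) are shown for FOS, DUSP1 and NR4A3, the immediate-early members among the 10 smallest p-values for which a promoter could be read, because these members differ in how many such elements they hold. Capitals mark the core element TGACG or its reverse complement CGTCA, or the full element TGACGTCA, which contains both.
FOS, chr7:98449208-98449507, plus strand: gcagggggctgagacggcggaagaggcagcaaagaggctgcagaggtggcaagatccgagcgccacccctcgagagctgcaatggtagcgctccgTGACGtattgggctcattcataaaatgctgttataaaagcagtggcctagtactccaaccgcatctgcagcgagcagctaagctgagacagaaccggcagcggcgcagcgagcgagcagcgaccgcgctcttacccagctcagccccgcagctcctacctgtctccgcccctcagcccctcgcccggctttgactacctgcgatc
DUSP1, chr16:51457624-51457923, plus strand: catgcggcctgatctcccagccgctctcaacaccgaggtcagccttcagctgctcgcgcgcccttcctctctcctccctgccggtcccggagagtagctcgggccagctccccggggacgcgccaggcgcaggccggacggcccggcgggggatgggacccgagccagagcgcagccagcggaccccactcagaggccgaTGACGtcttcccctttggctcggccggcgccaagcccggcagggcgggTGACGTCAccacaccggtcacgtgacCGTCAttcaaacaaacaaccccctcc
NR4A3, chr1:241569567-241569866, plus strand: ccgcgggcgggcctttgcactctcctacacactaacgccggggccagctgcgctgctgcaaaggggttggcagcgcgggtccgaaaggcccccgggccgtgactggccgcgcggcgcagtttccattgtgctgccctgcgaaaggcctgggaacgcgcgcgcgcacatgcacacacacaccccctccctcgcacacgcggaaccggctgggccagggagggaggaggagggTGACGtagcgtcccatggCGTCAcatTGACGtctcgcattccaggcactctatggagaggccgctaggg
The windows of FOS and NR4A3 held 1 and 3 core elements, and that of DUSP1 held 4, 2 of which form 1 full element. On either strand, the core was present in 22.2% of 19556 such windows of protein-coding genes and in 11 of the 25 immediate-early windows (44%), and the full element in 1.76% and in 3 of 25 (12%). A further motif, the CArG box (CC, then a run of A or T, then GG), was also searched. It was present in 1.6% of the windows and in 1 of the 25 immediate-early windows (4%), and FOS, DUSP1 and NR4A3 held 0. A match of letters is a description of the window and not a measured binding site. The window is counted from the annotated gene start and does not reach sites further upstream. A count of 0 is therefore not read as a lack of such sites in the promoter.

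The members of this list did not all follow the same libraries. FOS, a subunit of the AP-1 transcription factor, had log2 CPM of 0.96, 3.52 and 7.98 in apical and 0.13, 2.22 and 3.51 in lateral libraries. It was high in apical 5 and apical 9 and low in apical 1 and apical 2, and its difference of 3.82 (SE 1.14) was 3.18 without apical 5. The mean of swine 1640 was lower in the apical region by 0.89 on the log2 scale, whereas swine 1644 and 5385 differed by 3.00 and 3.69. FOSB, its paralogue, had the largest difference of the list, 4.67 (SE 1.44), which was 3.56 without apical 5, and also lay lower in the apical mean of swine 1640. NR4A1, an orphan nuclear receptor, was at 5.12, 5.77 and 9.01 against 4.01, 4.73 and 5.28. It overlapped the lateral range only through the lowest apical values, near lateral 4, and was higher in all 3 swine, by 0.80, 2.87 and 0.98, with a difference of 2.26 (SE 0.63) that was 1.22 without apical 5. NR4A3, of the same receptor family, differed by 2.44 (SE 0.73) and by 1.19 without apical 5, and DUSP1, a phosphatase that shuts off MAP kinases, by 1.96 (SE 0.59) and by 1.27 without it. EGR1, a zinc finger factor, was at 4.15, 4.88 and 9.17 against 2.41, 3.69 and 5.70, with a difference of 2.87 (SE 0.89) that was 1.77 without apical 5. FOSL2, another AP-1 subunit, differed by 2.21 with apical 5 and by 0.51 without it. ATF3, a stress-induced repressor, was in contrast not highest in apical 5, and its difference of 1.62 (SE 0.59) was 1.53 without that library and 1.83 without all 4 libraries. It was higher in the apical mean of each animal, by 1.42, 2.23 and 2.13 in swine 1640, 1644 and 5385. In all, 11 of 22 members were higher in the apical mean of all 3 swine, against 14.9% of all genes, and 0 were lower in all 3, against 18% of all genes. The animals were unlike in size, however. The median over the list was 0.04 in swine 1640, 2.41 in swine 1644, which includes apical 5, and 0.72 in swine 5385.

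Genes of the heat shock and unfolded protein responses showed a smaller difference that pointed the same way in nearly every member and animal. All 20 members tested had a difference above 0 (against 43.8% among all genes tested), with a median of 0.66. At an unadjusted p under 0.05 there were 8 members, all of them higher, against 1.87% of all genes in that direction. Of the 20, 18 were higher in the apical mean of all 3 swine (90%, against 14.9% of all genes). The summed level was 1919, 2834 and 3386 CPM in apical libraries and 721, 1545 and 2858 CPM in lateral libraries. Lateral 1 and lateral 5 lay within the apical range and the other 4 lateral libraries below it. HSP90AA1, the inducible HSP90, was at log2 CPM of 8.80, 9.48 and 9.78 against 7.45, 8.53 and 9.48, a difference of 0.67 (SE 0.36, 95% interval -0.08 to 1.43). HSPA8, the constitutive HSC70, differed by 0.58 (SE 0.36). HSPA5, the endoplasmic reticulum chaperone BiP, named after its value was seen, was at 6.41, 6.95 and 7.09 against 5.12, 5.51 and 7.18, with a difference of 0.95 (SE 0.32) that was 0.92 without apical 5 and 0.70 without the even-profile libraries. The 2 lowest lateral libraries for the list, lateral 2 with 721 CPM and lateral 3 with 1038 CPM, were both even-profile libraries. Without the even-profile libraries all 20 differences were still above 0, but the median was 0.41 and 0 members had an unadjusted p under 0.05. The count of 8 was 17 without lateral 1, 5 without apical 2, lateral 3 or lateral 6, and 4 without apical 5. Baseline libraries held 1862 to 2521 CPM, between the medians of the Day 14 groups in all 4 libraries.

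**Figure D3:**
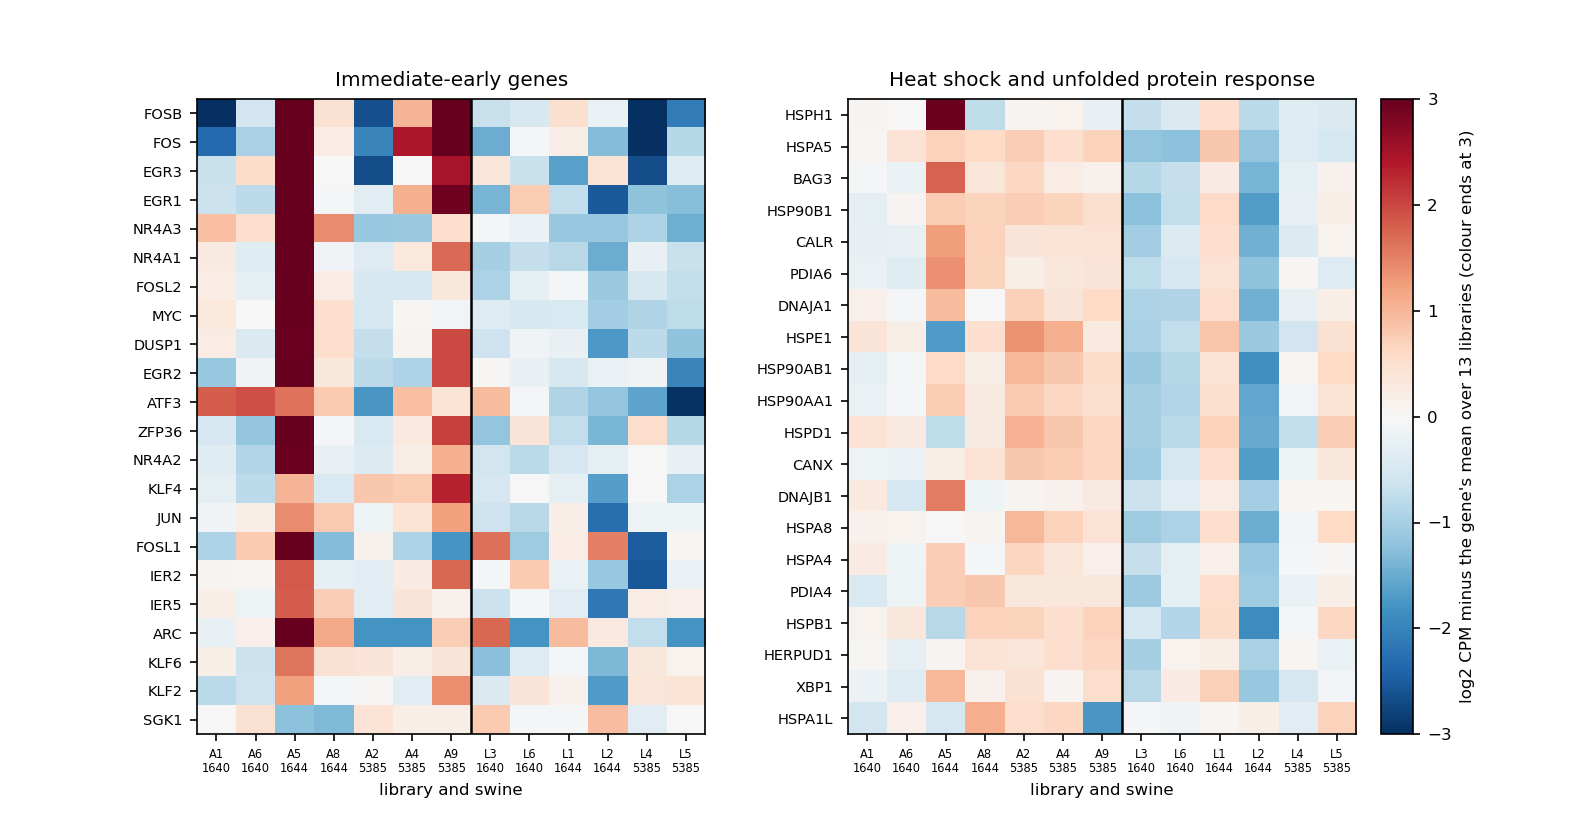
Log2 CPM of each member of 2 lists, shown as the difference from the gene's mean over 13 libraries (colour, ending at 3 in both directions), with apical libraries (A) left and lateral libraries (L) right of the black line, and the swine under each library. Immediate-early genes are highest in A5 and A9, whereas heat shock and unfolded protein response genes are lower in L2, L3 and L6 and less uneven among apical libraries.

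Matrix genes were higher on average in the apical region, and the size of that difference rested on apical 5. For matricellular proteins, fibronectin and elastic fibre genes, 14 of 31 members had an unadjusted p under 0.05 in the higher direction and 0 in the lower, with a median difference of 0.89. Over all genes tested, 1.87% were higher and 2.29% lower at that p. The summed level was 2291, 3990 and 34894 CPM in apical and 2043, 2572 and 5706 CPM in lateral libraries. After apical 5, the highest apical value was 9652 CPM in apical 8, also of swine 1644, and the other 5 libraries overlapped the lateral range in all but apical 9, with 6413 CPM. The baseline libraries held 2874 to 9679 CPM, so that one taken before the occlusion lay above apical 8. Without apical 5 the counts were 5 higher and 1 lower, with a median of 0.42, while 9 were higher without lateral 2, lateral 3 or lateral 5, and without apical 5 and the even-profile libraries 3 higher and 1 lower (2% and 2.74% of all genes) with a median of 0.43. ELN, the elastin gene, was at log2 CPM of 6.20, 8.18 and 13.52 against 5.74, 7.04 and 8.83, and its difference of 3.44 (SE 1.23) was 0.89 without apical 5. SPARC, a collagen-binding glycoprotein, differed by 1.46 (SE 0.68), and by 0.36 without apical 5. THBS1, an activator of latent TGF-beta, was at 6.11, 7.06 and 11.21 against 5.29, 6.37 and 6.92. Its difference of 2.58 (SE 0.82) was 0.80 (unadjusted p = 0.02) without apical 5 and 0.64 (unadjusted p = 0.00714) without all 4 libraries. CCN2, a matricellular target of TGF-beta and YAP, differed by 2.82 (SE 0.88), and by 1.28 without apical 5. THBS1 and CCN2 were named after their values were seen.

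Fibrillar collagens gave the widest ranges. The summed level of the 11 members was 3715, 9539 and 99435 CPM in apical libraries and 3033, 5703 and 18295 CPM in lateral libraries. Apical 5 and apical 8, with 34372 CPM, lay above every lateral library, and both came from swine 1644. The baseline libraries held 4840 to 38792 CPM, the highest of them, also from swine 1644, lying above apical 8. COL1A1 was at log2 CPM of 9.90, 11.47 and 15.34 against 9.61, 10.78 and 12.76, a difference of 1.75 (SE 0.91, 95% interval -0.19 to 3.69). COL3A1, its partner in the fibrils of granulation tissue, differed by 1.54 (SE 0.74). Of the 11 members, COL5A1 alone had an unadjusted p under 0.05 (9.09%, against 1.87% of all genes in the higher direction), with a difference of 1.89 (SE 0.78). Without apical 5 these were 0.50, 0.77 and 0.84, and the median of the list went from 1.31 to 0.20. Of 20 fibril-associated and network collagens, 8 (40%) had an unadjusted p under 0.05 in the higher direction, against 1.87% of all genes. Among them COL6A3 of the microfibrils was at 1.46 (SE 0.59), and at 0.78 without apical 5. The count of 8 was 1 without apical 5, 4 without lateral 3, 4 or 5, and 5 without lateral 2 or apical 8. COL4A1 of the basement membrane differed by 0.51 (SE 0.44) and by -0.06 without apical 5 and the even-profile libraries. Among 14 proteoglycans 6 (42.9%) had an unadjusted p under 0.05 in the higher direction, against 1.87% of all genes. BGN, the collagen-binding biglycan, was 1 of them, at 2.29 (SE 0.81) and at 0.77 without apical 5. The count of 6 was 0 without apical 5. HSPG2, the basement membrane perlecan and the most abundant of them, differed by 0.41 (SE 0.39).

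Matrix proteases and their inhibitors held a member in each direction. Of 19 tested, 5 had an unadjusted p under 0.05 in the higher direction, 2 without apical 5, and 1 in the lower. With all libraries these were 26.3% and 5.26%, against 1.87% and 2.29% of all genes. ADAMTS5, an aggrecanase that degrades versican, was the lower one and is named after its value was seen. It was at 1.59, 3.88 and 4.15 in apical and 3.97, 4.71 and 5.42 in lateral libraries, and was lower in all 3 swine, by 0.86, 1.89 and 0.95 on the log2 scale. Its difference of -1.14 (SE 0.37) was -0.97 without apical 5 and -1.16 without apical 5 and the even-profile libraries.

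Fibroblast markers, which share the 3 main fibrillar collagen genes with the list above, were higher in 15 of 16 members with a median of 0.97. That share of 93.8% lies beside 43.8% of all genes tested. Of the 16 markers, 5 (31.2%) had an unadjusted p under 0.05 in the higher direction, against 1.87% of all genes. That count was 1 without apical 5, 3 without apical 8, lateral 4 or lateral 5, and 8 without apical 1, apical 6 or lateral 1. TCF21, a transcription factor of cardiac fibroblasts named after its value was seen, was at 2.54, 3.89 and 6.63 in apical and 0.86, 2.48 and 3.76 in lateral libraries. Its difference was 2.04 (SE 0.69), and 1.32 without apical 5. Swine 1640 did not share it, with a difference of -0.32 against 2.82 in swine 1644 and 2.47 in swine 5385. SFRP1, a secreted inhibitor of Wnt ligands and one of 2 among 23 Wnt genes (8.7%) at an unadjusted p under 0.05, differed by 2.60 (SE 0.79), and by 1.25 without apical 5. TGF-beta and BMP signalling genes had 5 of 32 members (15.6%) at an unadjusted p under 0.05, all higher, against 1.87% of all genes. That count was 0 without apical 5, 1 without lateral 2, 2 without lateral 3 or lateral 5, 3 without lateral 4 or apical 9, and 8 without apical 6.

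The medians of the matrix lists had unlike signs among the animals, each resting on 2 or 3 apical and 2 lateral libraries. Those of swine 1644 include apical 5 and the even-profile lateral 2. In swine 1640, 1 library in each region was an even-profile library. The median difference in mean log2 CPM over the matricellular list was -0.45 in swine 1640, 1.74 in swine 1644 and 1.05 in swine 5385, and over the fibrillar collagens -0.49, 2.08 and 0.52. The interaction of region and swine, tested with edgeR's quasi-likelihood test and Benjamini-Hochberg adjustment, called 0 genes (smallest adjusted p 0.478). It gave 622 genes at an unadjusted p under 0.05 (3.18%), and the likelihood ratio test of DESeq2 called 73. Among these were 11 of 31 matricellular genes, 9 of 22 immediate-early genes and 5 of 21 endothelial markers at an unadjusted p under 0.05 in edgeR, and 0 of 20 heat shock and unfolded protein response genes.

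**Figure D4:**
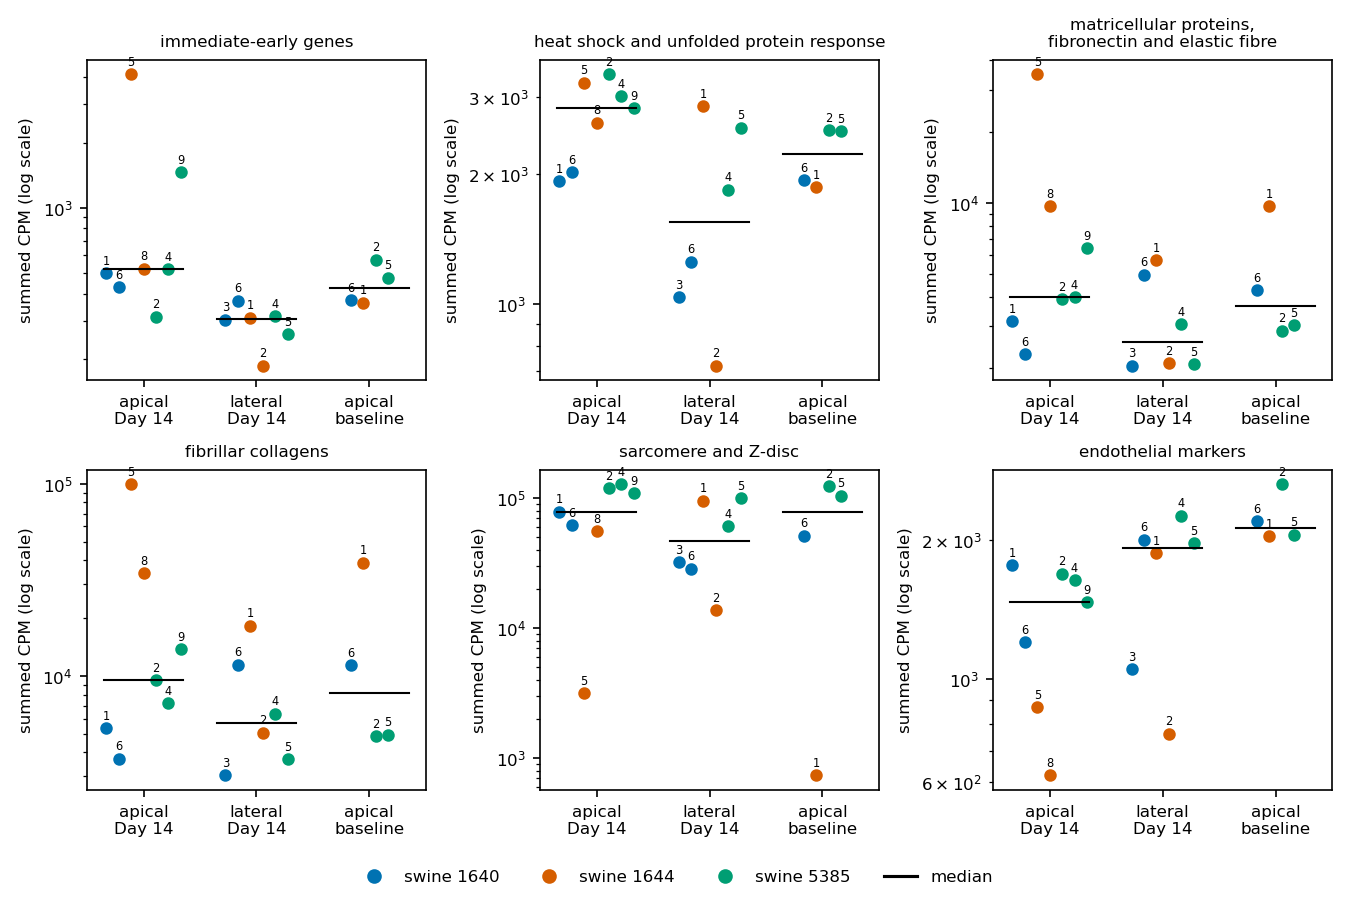
Summed CPM (y axis, log scale) of 6 gene lists in apical Day 14, lateral Day 14 and apical baseline libraries, with 1 numbered point per library coloured by swine and the median as a line. Apical 5 is highest for immediate-early genes (4130 CPM), matricellular genes (34894 CPM) and fibrillar collagens (99435 CPM) and lowest of the Day 14 libraries for the sarcomere (3153 CPM).

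Cardiomyocyte genes were not lower in the apical region than in the lateral region as a list, and again no member passed the test. Of 30 sarcomere and Z-disc genes, 28 had a difference above 0 (against 43.8% among all genes tested), with a median of 0.57, and 0 had an unadjusted p under 0.05. Their summed level was 3153, 78799 and 128103 CPM in apical and 13780, 46640 and 99597 CPM in lateral libraries, and the lowest lateral library was the even-profile lateral 2. Without apical 5, 6 members had an unadjusted p under 0.05, all higher, against 1.88% of all genes. Without apical 5 and the even-profile libraries 4 had, against 2% of all genes, with a median of 0.50. Apical 5 was set apart above partly by its low sarcomere level, so the counts without it are not independent of that choice and are not read as support. MYH6 differed by 0.57 (SE 0.88, 95% interval -1.29 to 2.43) and TNNT2, cardiac troponin T, by 0.30 (SE 0.71). Without the even-profile libraries alone, MYH6 differed by 0.25 and TNNT2 by -0.02. ACTC1, cardiac actin, named after its value was seen, was at 5.10, 9.45 and 10.84 against 7.49, 8.53 and 9.62. Its difference was 1.06 (SE 0.59), and 0.86 (unadjusted p = 0.257) without the even-profile libraries alone. Without all 4 libraries it was 1.11 (unadjusted p = 0.0152). By animal, the median over the list was 1.21 in swine 1640, -1.66 in swine 1644 and 0.51 in swine 5385. Apical 5 is 1 of the 2 apical libraries of swine 1644.

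Nuclear genes of energy metabolism followed the sarcomere. All 26 complex I subunits tested were above 0 with a median of 0.49, with NDUFS1, the most abundant, at 0.48 (SE 0.44), and all 21 genes of the tricarboxylic acid cycle were above 0 with a median of 0.37. Among all genes tested 43.8% were above 0. In total 1 gene of these 2 lists, of complex I, had an unadjusted p under 0.05 (3.85% of that list, against 1.87% of all genes in the higher direction). Without the even-profile libraries the medians were 0.20 and 0.09, against 0.03 over all genes. Of the 13 protein genes of the mitochondrial genome, 1 was above 0 (7.69%, against 43.8% of all genes tested) and the median was -0.14. Without apical 5, 7 of 13 were above 0 with a median of 0.02, so that their direction rested on that library, and without the even-profile libraries 0 were above 0 and the median was -0.40.

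Endothelial markers were lower in the apical region in nearly every member. Of 21 members, 2 had a difference above 0, against 43.8% among all genes tested, and the median was -0.34. The median was -0.20 without apical 5. Over all genes the median was -0.10 with all libraries and -0.13 without apical 5. Without the even-profile libraries 0 of 21 were above 0 with a median of -0.58, against 53.8% among all genes tested, and without all 4 libraries 0 of 21 with a median of -0.49. The summed level was 619, 1466 and 1759 CPM in apical and 762, 1914 and 2252 CPM in lateral libraries. The 2 lowest lateral values were the even-profile lateral 2 and lateral 3, and the other 4 lateral libraries, from 1867 to 2252 CPM, lay above every apical library. Baseline libraries, at 2031 to 2632 CPM, lay above every apical Day 14 library as well. With all libraries 0 members had an unadjusted p under 0.05 (1.87% and 2.29% of all genes in the 2 directions). Without apical 5 and the even-profile libraries PECAM1, the junctional adhesion molecule CD31, ERG, an endothelial transcription factor, TIE1 and MMRN2 had one in the lower direction. PECAM1 was at log2 CPM of 5.65, 8.03 and 8.25 against 6.97, 8.34 and 8.82, with differences of -0.48 (SE 0.39) over all libraries and -0.54 without the 4. ERG was at 5.64, 6.64 and 7.53 against 6.81, 7.11 and 7.53, with -0.43 (SE 0.27) and -0.77. FLT1, a VEGF receptor, differed by -0.49 (SE 0.37). By animal the median over the list was 0.07 in swine 1640, -1.39 in swine 1644 and -0.37 in swine 5385, so that swine 1640 did not share the direction. In swine 1640 one library in each region was an even-profile library.

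Of 26 hypoxia and angiogenesis genes, VEGFC, the lymphangiogenic growth factor, alone had an unadjusted p under 0.05. That share of 3.85% lay near the 4.17% of all genes in both directions together. The list was spread around 0, with 13 of 26 members above 0 (50%, against 43.8% of all genes tested) and a median of -0.02. VEGFC is named for its p-value. It was at 2.75, 4.53 and 5.09 in apical and 4.35, 5.28 and 5.58 in lateral libraries and was lower in the apical mean of all 3 swine, by 1.00, 0.75 and 1.05 on the log2 scale. Its difference was -0.82 (SE 0.31, unadjusted p = 0.018), and -1.09 (unadjusted p = 0.00399) without apical 5 and the even-profile libraries. IGFBP5, the most abundant gene of the list, differed by 0.60 (SE 0.50). Of 10 pericyte markers 4 were above 0 (40%, against 43.8% of all genes tested) and 0 had an unadjusted p under 0.05.

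Lymphocyte markers were lower in the apical region in 25 of 26 members, with a median of -1.03. The share above 0 was 3.85%, against 43.8% of all genes tested. Of the 26 markers, 3 (11.5%) had an unadjusted p under 0.05 in the lower direction, against 2.29% of all genes. That count was 9 without apical 6, 8 without lateral 4 and 5 without lateral 5. The summed level was small, at 97.7, 133.8 and 252 CPM in apical and 153.957, 201.5 and 379 CPM in lateral libraries. The 3 highest libraries were lateral 2 with 379 CPM, lateral 3 with 322 CPM and apical 6 with 252 CPM, which are the 3 even-profile libraries. Their part in the result was not tested separately from the region, but without them the median of the 21 members still tested was -0.54, with 3 members at an unadjusted p under 0.05 (1.95% of all genes in that direction). CD247, the zeta chain of the T cell receptor, was at log2 CPM of 2.66, 3.26 and 4.49 against 3.66, 4.53 and 5.30. It was lower in all 3 swine, by 0.72, 1.76 and 0.89 on the log2 scale, and its difference was -1.16 (SE 0.35, unadjusted p = 0.00464) over all libraries and -1.04 without the even-profile libraries. LCK, the kinase of T cell receptor signalling, was at 0.25, 0.77 and 2.85 against 1.76, 3.06 and 3.66, with -1.41 (SE 0.51) and -1.57. GZMH, a granzyme, differed by -1.64 (SE 0.68), and by -1.21 (unadjusted p = 0.113) without them. PTPRC, the pan-leukocyte CD45, was the most abundant marker and differed by -0.39 (SE 0.21). CXCL9, an interferon-induced attractant of T cells named after its value was seen, was at -2.28, 0.17 and 2.57 in apical and -0.62, 2.49 and 3.66 in lateral libraries, where -2.28 stands for a count of 0. Its difference was -1.88 (SE 0.87), and -2.42 without the even-profile libraries.

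Macrophage markers overlapped between the regions in summed level. The summed level of 22 markers was 330, 437 and 596 CPM in apical and 315, 376 and 498 CPM in lateral libraries. Of the 22, 13 were above 0 (59.1%, against 43.8% of all genes tested). An unadjusted p under 0.05 was reached by 1, in the higher direction (4.55%, against 1.87%). In all 3 swine the apical mean was higher for 8 (36.4%, against 14.9% of all genes) and lower for 2 (9.09%, against 18%). The median over the list was 0.08 in swine 1640, 0.29 in swine 1644 and 0.36 in swine 5385. CSF1R, the receptor that macrophages depend on, differed by 0.34 with a 95% interval of -0.28 to 0.97. Cytokines and chemokines were spread around 0, with 12 of 25 above it (48%, against 43.8% of all genes tested). CXCL12, the most abundant, differed by -0.33 (SE 0.32). Among 7 granulocyte, platelet and erythrocyte markers, CSF3R, the receptor of G-CSF, had a difference of -1.34 (SE 0.45) and a low level, at medians of 0.80 in apical and 2.11 in lateral libraries. HBB, a globin gene whose reads may be shared with its cluster, followed the animal and not the region. It was at log2 CPM of 11.8 to 12.7 in the 5 Day 14 libraries of swine 5385 and at 3.14 to 6.42 in the other 8.

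Markers of other structures that a catheter can reach were also measured. Conduction system and Purkinje fibre genes had 6 of 17 members above 0 (35.3%, against 43.8% of all genes tested). Their median was -0.69, and -0.03 without the even-profile libraries. GJA5, the connexin of conducting fibres and arterial endothelium named after its value was seen, was at 1.16, 2.76 and 3.69 against 2.55, 3.87 and 4.61. Its difference was -1.05 (SE 0.42), and -0.88 without the even-profile libraries. PLIN1, which coats the lipid droplets of adipocytes, was at -1.28, -0.38 and 2.75 against -0.62, 1.74 and 5.52, a difference of -2.58 (SE 1.02) that did not have the same sign in swine 5385 (0.68) as in swine 1640 (-3.81) and swine 1644 (-2.01). Endocardial markers had 7 of 11 members above 0 (63.6%, against 43.8% of all genes tested). Their median was 0.15, and it was -0.58 without apical 5 and 0.53 without the even-profile libraries.

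**Figure D5:**
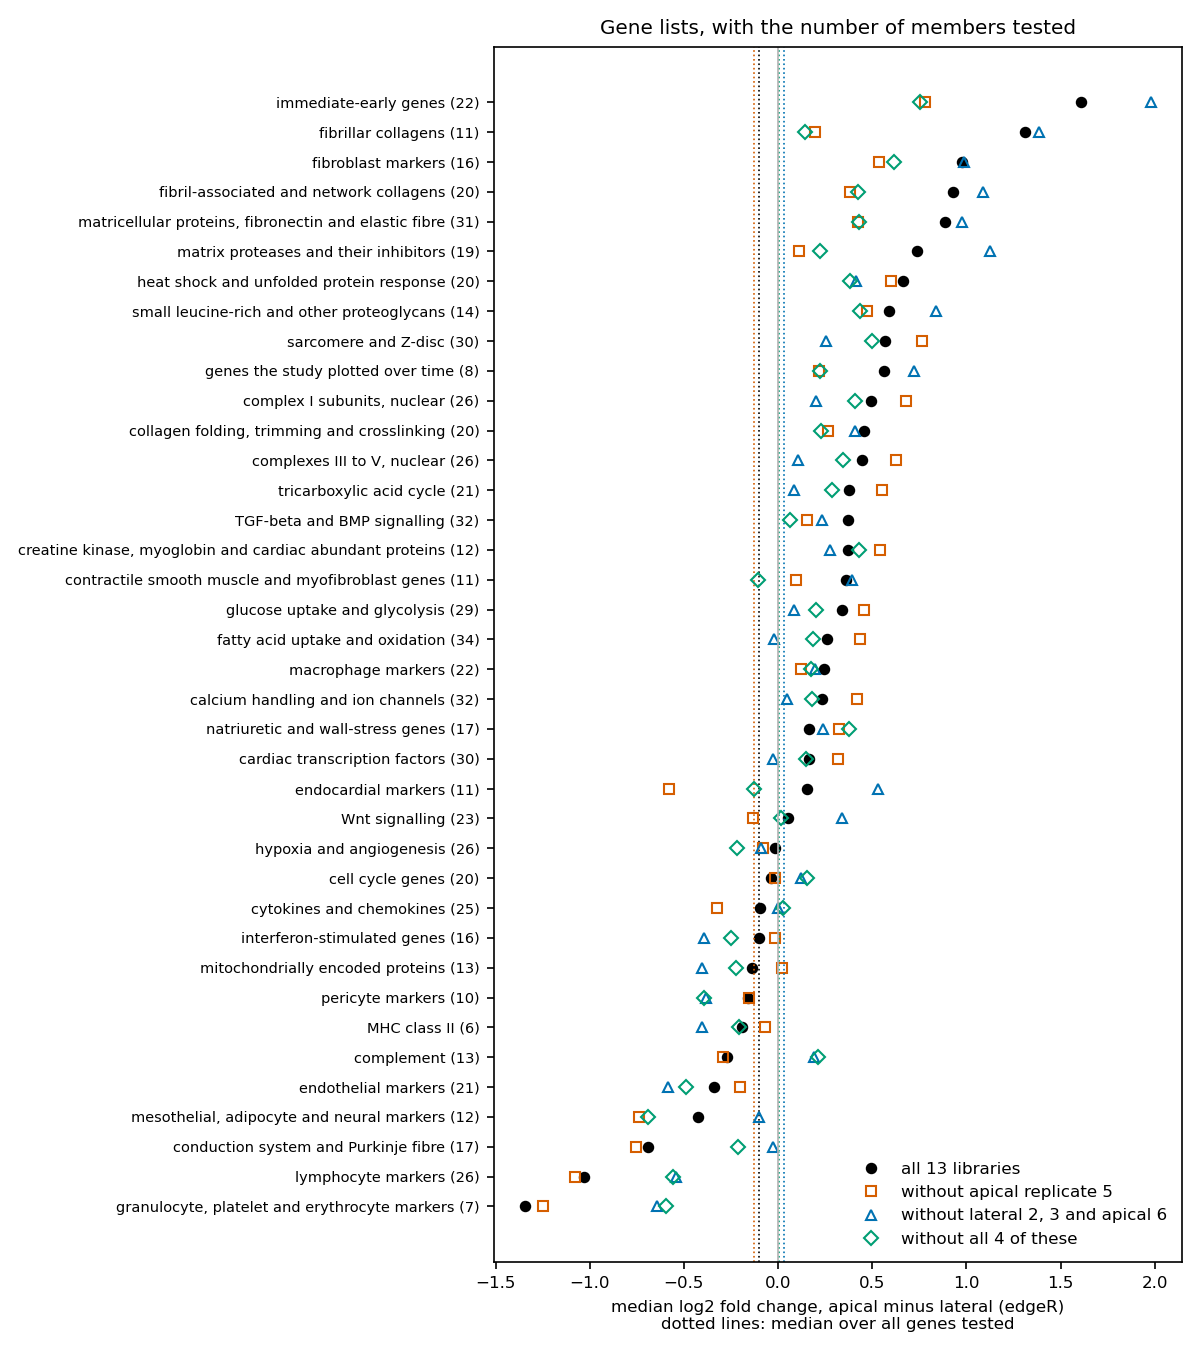
Median log2 fold change, apical minus lateral, of 38 gene lists (x axis, edgeR) over all 13 libraries and without apical 5, without the even-profile libraries and without all 4, with the number of members tested in brackets and the median over all genes as dotted lines. The immediate-early median is 1.61 over all libraries and 0.75 without the 4, that of the fibrillar collagens goes from 1.31 to 0.14, and the endothelial median is below 0 in every set.

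Of the 8 genes the study plotted over time, 7 (87.5%, against 43.8% of all genes tested) had a difference above 0, with a median of 0.56 and wide intervals. In 4 of them (50%, against 14.9% of all genes) the apical mean was higher in all 3 swine. MYC, a growth-promoting transcription factor, was at 2.44, 3.01 and 6.76 in apical against 1.92, 2.35 and 2.60 in lateral libraries. It was the one of 8 at an unadjusted p under 0.05 without the swine as a block, with a difference of 2.21 (SE 0.70), and 0.74 (unadjusted p = 0.0179) without apical 5. With the block 3 of 8 were, namely MYC at 1.55 (unadjusted p = 0.0163), FN1 at 1.15 (unadjusted p = 0.0255) and TNC at 1.17 (unadjusted p = 0.00804). FN1, fibronectin, was at 7.30, 8.22 and 11.23 against 6.48, 7.19 and 9.37, with a difference of 1.44 (SE 0.71, 95% interval -0.06 to 2.95), and 0.67 without apical 5. TNC, the wound matrix protein tenascin C, was at 3.42, 4.73 and 8.29 against 1.82, 4.69 and 6.29. Its difference of 1.21 (SE 0.81) was 0.00 without apical 5, although the apical mean was higher in each animal, by 0.41, 1.35 and 1.39. CILP, a matrix protein of fibroblasts, differed by -0.03 with a 95% interval of -1.62 to 1.57, and its direction differed between animals, at 0.18, -1.47 and 3.42 in swine 1640, 1644 and 5385. PDK4, which slows glucose oxidation, differed by 0.27 (SE 0.77), FAM111A by 0.15 (SE 0.40), ZBTB16, a glucocorticoid-induced zinc finger factor, by 0.26 (SE 0.51), and ARC, an activity-regulated immediate-early gene, by 0.85 (SE 1.22). For these 4 and CILP the direction changed with single libraries or settings.

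With the swine as a block, edgeR's quasi-likelihood test called 0 of 19590 genes, and the unadjusted counts were 264 higher (1.35%) and 867 lower (4.43%). The immediate-early count was then 12 of 22 and the heat shock count 8 of 20, all higher, and the endothelial count 2 of 21, both lower. The matricellular count went from 14 to 8 of 31, and ELN from a difference of 3.44 to one of 1.32 (unadjusted p = 0.281). Fibril-associated and network collagens went from 8 higher and 0 lower to 3 higher and 2 lower of 20, the lower ones being COL4A4 of the basement membrane (-1.38) and COL22A1 (-1.63), named after their values were seen. The fibrillar count went from 1 to 0 of 11, with COL5A1 at 1.07 (unadjusted p = 0.107), the TGF-beta and BMP count from 5 to 0 of 32, and the protease count from 5 to 3 of 19 in the higher direction. In the lower direction, the lymphocyte count went from 3 to 6 of 26, the conduction system count from 1 to 5 of 17 and the interferon-stimulated count from 1 to 5 of 16. PLIN1 was at -1.84 (unadjusted p = 0.15) with the block. Without apical 5 and without the block, 366 genes were higher (1.88%) and 441 lower (2.27%) at an unadjusted p under 0.05.

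Day 14 was set against the earlier timepoints in a fit of all apical and lateral libraries, which included 9 apical and 3 lateral libraries at 1 - 3 h and 4 and 4 at Day 2. The region difference was not shown to differ between timepoints for any gene by the quasi-likelihood test of edgeR after Benjamini-Hochberg adjustment. Against 1 - 3 h, 0 of 18097 genes passed (smallest adjusted p 0.0876), 1008 had an unadjusted p under 0.05 (5.57%) and DESeq2 called 5. Against Day 2, 0 passed, 491 had an unadjusted p under 0.05 (2.71%) and DESeq2 called 1. The median region difference of the immediate-early list in this fit was 0.39 at 1 - 3 h, 0.13 at Day 2 and 1.53 at Day 14. In 5 of 22 members the Day 14 difference departed from that at 1 - 3 h at an unadjusted p under 0.05, and in 1 of 22 from that at Day 2. Without apical 5 the Day 14 median of this list was smaller, as given above. The difference at 1 - 3 h rests on 3 lateral libraries. For that early timepoint, the study reported lateral samples of the same animal clustering with infarcted ones. It proposes that these were taken in or near the infarct. Their part in the early region difference was not tested, so these medians are not read as a rise over time. For heat shock and unfolded protein response genes the medians were 0.54, 0.51 and 0.65, with 1 of 20 and 0 of 20 members. The matricellular list gave 0.08, 0.82 and 0.82, with 8 of 31 members departing from 1 - 3 h and 2 of 31 from Day 2. Endothelial markers gave 0.18, 0.47 and -0.35, with 0 of 21 and 2 of 21 members, and lymphocyte markers 0.32, 0.01 and -1.10, with 1 of 23 and 2 of 23. The lists with the largest shares were others. For cell cycle genes 13 of 20 members departed from Day 2, with a median difference between the timepoints of -1.98, and 2 of 20 departed from 1 - 3 h. For mesothelial, adipocyte and neural markers 7 of 11 members departed from 1 - 3 h, with a median of -0.86, and 0 of 11 from Day 2. The counts departing from 1 - 3 h and from Day 2 lie beside 5.57% and 2.71% of all genes. In the region comparison at Day 14 itself, 9 of 20 cell cycle genes were above 0 (45%, against 43.8% of all genes tested). An unadjusted p under 0.05 was reached by 1, in the higher direction (5%, against 1.87% of all genes).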

How the data were processed

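Micro-EMB were collected from 3 swine and sequenced with the SMARTer Pico stranded total RNA kit on a NovaSeq instrument. Per the labels and the study's methods, the authors aligned reads with STAR to Sscrofa11.1 and counted them per gene with featureCounts. The versions and the strand setting are not given in the sources used here, so reads of overlapping genes may not be separated. The deposited values were raw counts, and no column was left without a sample. RNA was isolated in random batches that the labels do not name.

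The test took in each gene that reached a CPM of 1 in 20% or more of these 13 libraries and used edgeR 4.0.16 in R 4.3.3 (TMM, quasi-likelihood test, region as the one term, Benjamini-Hochberg adjustment over all genes, threshold 0.05). DESeq2 1.42.0 and limma-voom 3.58.1 were alternatives, beside other normalization and filters, sums per swine, leaving out each library, and the swine as a block. Gene levels are given as log2 CPM (prior count 2) and list levels as summed CPM. Scripts were tested on simulated data. Libraries of the same swine deviated together: deviations from the group mean correlated at 0.2 on average over 22 pairs, against -0.179 over 56 pairs of different swine. The pairing by swine comes from the labels.

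The members, limits and gene lists were chosen with earlier results of these data known. Named genes were the 10 with the smallest p in each direction among genes with a symbol, those without overlap, up to 4 abundant or defining members of each list, and the genes the study plotted over time. EGR1, FOSB, FOSL2, ATF3, HSPA5, THBS1, CCN2, COL4A4, COL22A1, COL5A1, COL6A3, BGN, ADAMTS5, TCF21, SFRP1, ACTC1, VEGFC, TIE1, MMRN2, LCK, GZMH, CXCL9, CSF3R, HBB, GJA5 and PLIN1 were named after their values were seen. Symbols were matched by gene identifier to RefSeq, which named 15029 of 31907 genes. Promoters came from RefSeq. A gene that the naming rule selects is not reported here.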

Additional observations from a re-analysis of the deposited data

Results flagged for a closer look

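Samples were looked at in 198 groups of values, and 24 held a library far from the others of its group. The nominal rate of the rule is 1 in 20 groups. It is not a chance level here, since some genes were named after their values were seen and some lists share members. In 20 of the 24 groups the library was apical 5, which had already been set apart by its collagen and sarcomere levels. Its summed level was the highest of the 7 apical libraries for immediate-early genes (4129.71 CPM, next 1459.87 CPM), fibrillar collagens (99434.6 CPM, next 34371.8 CPM), fibril-associated and network collagens (31256.8 CPM, next 11941.3 CPM), matricellular genes (34893.9 CPM, next 9652.03 CPM), proteoglycans (8116.48 CPM, next 4035.94 CPM), matrix proteases (4907.96 CPM, next 1329.23 CPM), fibroblast markers (85677.4 CPM, next 32369.1 CPM), smooth muscle genes (5797.3 CPM, next 2978.65 CPM) and TGF-beta and BMP signalling (8168.56 CPM, next 2956.85 CPM).

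Among single genes, apical 5 was far above the other apical libraries in log2 CPM for PTX4 (3.72), MYC (6.76), FOSL2 (9.69), THBS1 (11.21) and COL4A1 (12.17). It was far below them for MYH6 (9.52), TNNT2 (7.01), PDK4 (-2.28, a count of 0), ADAMTS5 (1.59), ACTC1 (5.10) and NDUFS1 (4.54). Apical 6 was far below the others for TENT5A (4.84) and far above them for SGIP1 (5.19), and apical 2 was far below for ATF3 (3.30). Among lateral libraries, lateral 1 was far above the others for PDK4 (6.80).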

How the results depend on the processing

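The count of 0 called genes between the regions held in every edgeR and limma-voom alternative run. DESeq2 called 2 genes, 73 in the region and swine interaction by its likelihood ratio test, and 5 and 1 in the interactions of region with 1 - 3 h and with Day 2 by its Wald test. With the swine as a replicate block, 0 genes were called and 1131 had an unadjusted p under 0.05, against 816. That number was 59 higher and 64 lower with all 9 apical libraries, 364 with counts summed per swine, 2159 with sums and the block, 1363 without a filter, and 423 to 2705 leaving out 1 library. Of 1916 recomputed differences of 71 genes, 25 changed sign. COL4A1 was at -0.061 without the 4 libraries. TNNT2 was at -0.13 with limma-voom, -0.0187 with all 9 apical libraries and -0.0187 without the even-profile libraries. CILP was at 0.63 with limma-voom, 0.78 with the block, 0.25 with sums per swine, 0.78 with sums and the block, and -0.31 to 1.42 leaving out 1 library. FAM111A was at -0.064 with all 9, -0.24 with the libraries the study listed, -0.0792 without the even-profile libraries, -0.48 without the 4, and -0.24 to 0.35 leaving out 1. ZBTB16 was at -0.10 with limma-voom and -0.21 to 0.48 leaving out 1, the log2 fold change of PDK4 at -0.59 with limma-voom, -0.13 without the even-profile libraries and -0.0915 to 0.90 leaving out 1, and ARC at -0.37 with the listed libraries and -0.37 to 1.52 leaving out 1. The cause was not tested. With mitochondrial and ribosomal genes removed (63 genes), the mitochondrial list had no value. With 3 animals and a wide spread between biopsies, the 95% intervals of most named genes span over 1 log2 unit.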
